A study of Mus musculus with 5 samples.

Results

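Calcium handling genes of the mouse heart were examined as loci: Atp2a2, Pln, Ryr2, Casq2 and Slc8a1, each with about 100 kb of sequence on either side. All ChIP-seq regions of the Tbx3, Nkx2-5 and Gata4 lists that overlapped these 5 windows were taken, which gave 66 of 21703 regions. The lists contributed 27 of 13242 Tbx3 regions, 24 of 6705 Nkx2-5 regions and 15 of 1756 Gata4 regions. The windows were chosen by gene, with the region positions of the same lists already known, so the numbers in them are a description and no test was made on them.

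The regions came from whole adult hearts of FVB/N mice, with 1 library per factor. Tbx3 was immunoprecipitated from Myh6-MCM;CAG-CAT-TBX3 hearts, in which the Myh6 promoter drives a Cre fusion in cardiomyocytes and TBX3 stands behind a removable CAT cassette. Nkx2-5 and Gata4 were immunoprecipitated from wild-type hearts without these transgenes. The Tbx3 positions therefore belong to a transgenic heart, and factor and genotype cannot be told apart. The labels give no treatment, age in weeks, sex or pooling. Whole heart holds cardiomyocytes, fibroblasts, endothelial and other cells, and a region list does not say which of them carried the factor. The control library (Tbx3 antibody in Myh6-MCM hearts) and the p300 library were not analysed here. The lists hold positions only, without height or read number, so the depth behind a region is unknown and there is no replicate check.

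In a heartbeat, calcium entering the cardiomyocyte opens the ryanodine receptor of the sarcoplasmic reticulum, and the released calcium drives contraction. Relaxation follows when the calcium pump returns calcium to the reticulum and the sodium-calcium exchanger carries it out of the cell. Atp2a2 encodes the pump SERCA2, Pln its inhibitor phospholamban, Ryr2 the release channel, Casq2 the calsequestrin that binds calcium in the store, and Slc8a1 the exchanger NCX1. Tbx3 is a T-box repressor known from the conduction system, and Nkx2-5 (a homeodomain factor) and Gata4 (a zinc-finger factor) are activators of cardiomyocyte genes.

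The start-site sequences of the genes are shown to make the recognition words of these factors visible at the genes themselves. RefSeq promoter windows (GRCm38.p6, 250 bases before to 50 after the start, 5′ to 3′ in the direction of the gene) were held for 4 of the 5 genes, Pln, Ryr2, Casq2 and Slc8a1. They are of another build than the mm9 regions, so whether a region lies on them was not determined. The word AAGTG was searched for Nkx2-5, AGATAA for the Gata4 family, and GGTGTGA or AGGTGT, which can overlap in 5 bases, for T-box factors, all on both strands, and matches are in capitals. The windows below are those with a match.

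Pln (chr10:53337436-53337735, plus strand): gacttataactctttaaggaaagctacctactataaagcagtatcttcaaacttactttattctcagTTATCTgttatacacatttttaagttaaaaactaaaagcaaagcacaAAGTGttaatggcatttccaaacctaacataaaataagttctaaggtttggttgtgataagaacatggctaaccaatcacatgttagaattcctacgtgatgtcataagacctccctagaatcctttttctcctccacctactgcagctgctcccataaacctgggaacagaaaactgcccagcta

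Casq2 (chr3:102086165-102086464, plus strand): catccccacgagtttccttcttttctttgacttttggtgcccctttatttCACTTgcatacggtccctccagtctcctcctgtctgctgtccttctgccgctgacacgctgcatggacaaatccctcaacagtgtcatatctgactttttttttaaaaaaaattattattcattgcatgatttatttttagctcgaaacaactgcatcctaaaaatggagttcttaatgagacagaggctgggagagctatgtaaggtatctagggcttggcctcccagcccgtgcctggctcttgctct

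Slc8a1 (chr17:81738338-81738637, minus strand): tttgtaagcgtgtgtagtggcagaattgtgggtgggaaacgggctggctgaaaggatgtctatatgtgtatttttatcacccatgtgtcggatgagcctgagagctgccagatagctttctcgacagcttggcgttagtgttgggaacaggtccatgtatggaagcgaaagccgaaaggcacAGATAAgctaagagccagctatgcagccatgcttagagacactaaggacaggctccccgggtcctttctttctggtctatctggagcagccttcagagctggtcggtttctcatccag

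Pln held AGATAA in reverse at bases 68 to 73 and AAGTG at bases 115 to 119. Casq2 held AAGTG in reverse at bases 51 to 55, and Slc8a1 held AGATAA at bases 183 to 188. The Ryr2 window (chr13:12106896-12107195, minus strand) held none of these words, and no T-box word was found in any of the 4. Over all 32851 promoter windows of this length, 46.4% held AAGTG, 11.2% AGATAA, 3.98% GGTGTGA and 13.7% AGGTGT, so AAGTG in particular is a common word. A match describes letters and not binding.

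The loci differed in how many regions they held. Counted over the windows with their flanks, Atp2a2 was the most densely occupied, with 28 regions in 260 kb, or 10.8 per 100 kb (exact Poisson 95% interval 7.16 to 15.6). Pln held 6 regions in 220 kb (2.73 per 100 kb, 1 to 5.94) and Casq2 7 in 260 kb (2.69, 1.08 to 5.55). The large genes held fewer per length: Slc8a1 had 11 regions in 570 kb (1.93 per 100 kb, 0.963 to 3.45) and Ryr2 had 14 in 760 kb (1.84, 1.01 to 3.09). The interval of Atp2a2 lay above those of the other 4 loci, which overlapped each other. In the middle of the windows alone, Pln held 15 regions per 100 kb (3 in 20 kb) and Atp2a2 13.3 (8 in 60 kb). The windows are given to 10 kb, and all 6 Pln regions lie within 10 kb of the middle's lower edge. The order of these 2 values is therefore uncertain. Which factor led within a locus depends on the lengths of the lists: with the 1756 widest regions of each, Gata4 had the highest density or shared it at every locus. The Poisson intervals cover counting error only, and regions that lie in groups make them too narrow.

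**Figure D1:**
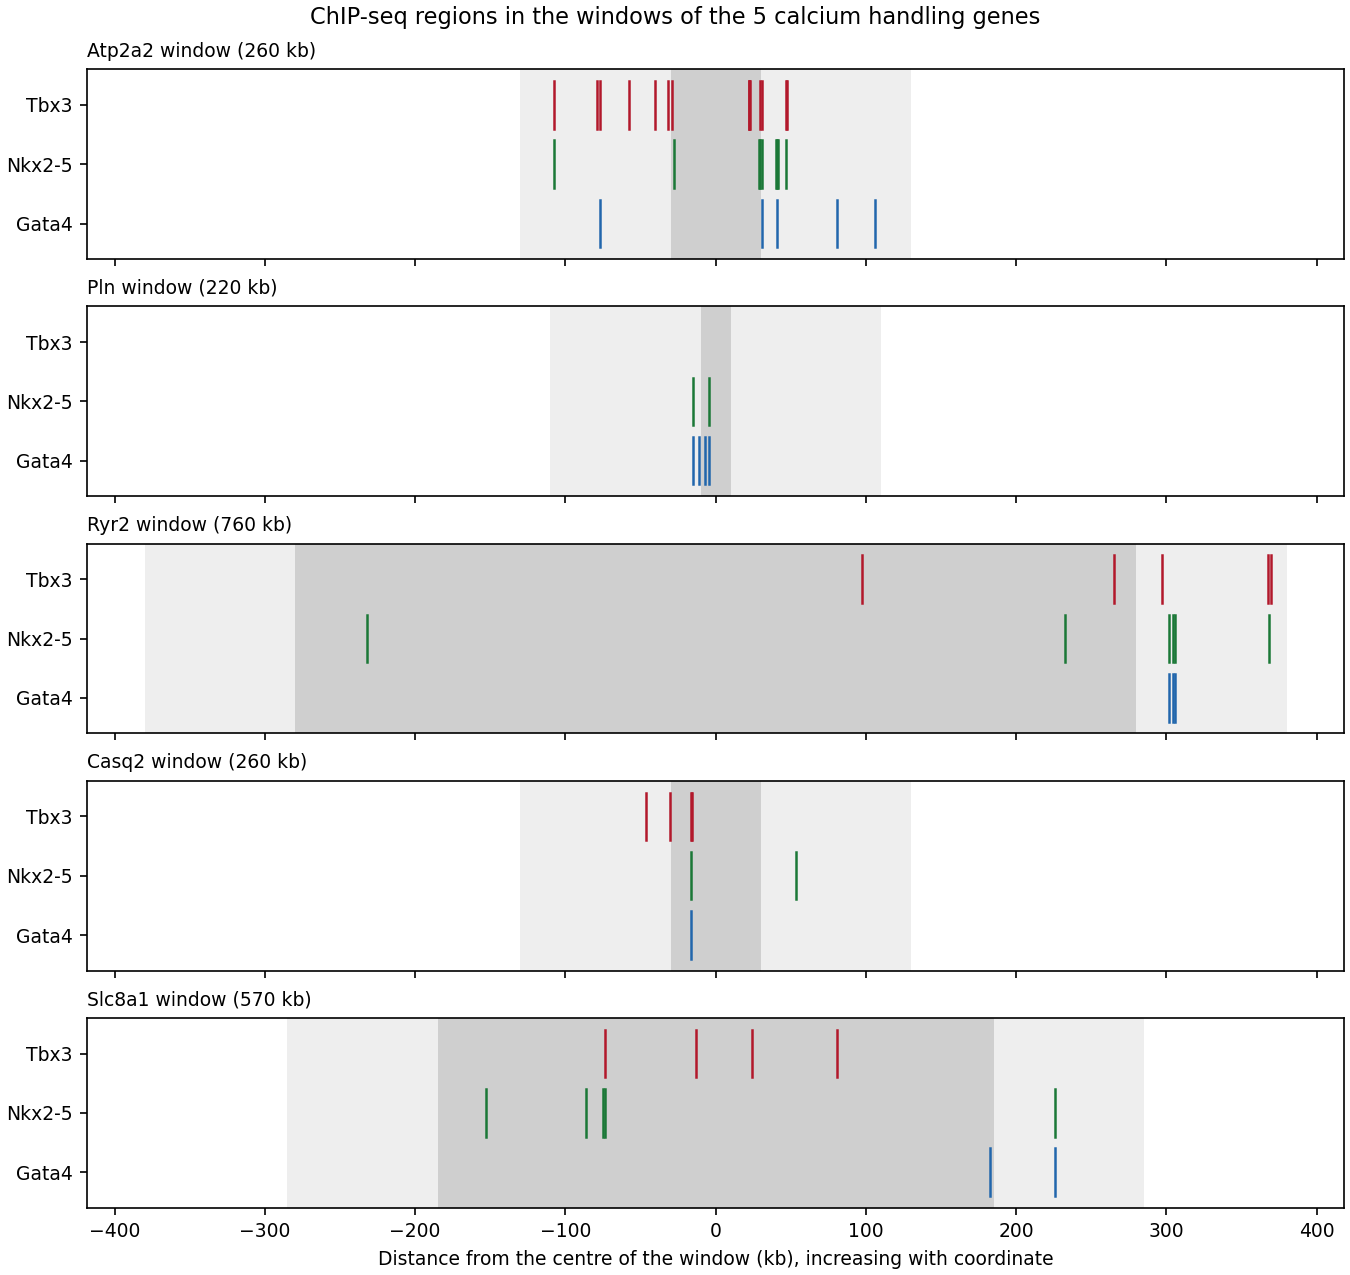
Each panel is 1 window, with kb from its centre on the x axis and a tick for every Tbx3, Nkx2-5 or Gata4 region; dark grey is the middle of the window (about the gene) and light grey the 100 kb on each side. The 6 Pln regions sit in 1 group without Tbx3, and the 3 Gata4 regions of Ryr2 sit in the upper flank.

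Over the 5 windows together, the 3 lists were represented unequally. Tbx3 gave 1.3 regions per 100 kb (exact Poisson 95% interval 0.86 to 1.9), Nkx2-5 1.16 (0.743 to 1.73) and Gata4 0.725 (0.406 to 1.2). As a share of each list, the windows held 0.854% of Gata4 regions (exact Clopper-Pearson 95% interval 0.479 to 1.4%), 0.358% of Nkx2-5 regions (0.229 to 0.532%) and 0.204% of Tbx3 regions (0.134 to 0.297%). The shortest list thus had the largest share here. Atp2a2 weighed heavily in the Tbx3 value: without it the other 4 windows held 0.718 Tbx3 regions per 100 kb, against 0.829 for Nkx2-5 and 0.552 for Gata4.

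Each locus was set beside all autosomal tiles of its own width, cut without overlap between the first and last region of a chromosome. Such tiles held on average 0.551 Tbx3, 0.276 Nkx2-5 and 0.0726 Gata4 regions per 100 kb at the widths of Atp2a2, Casq2 and Pln. At the widths of Ryr2 and Slc8a1 the averages were 0.549 and 0.55 for Tbx3, 0.276 for Nkx2-5 at both, and 0.0723 and 0.0725 for Gata4. Every factor was above its average in every window except Tbx3 at Pln. The tiles include stretches with and without genes, and the windows were not compared with those of other heart genes. The Poisson interval lay above the average for all 3 factors at Atp2a2, for Gata4 at Pln, and by a small margin for Nkx2-5 and Gata4 at Ryr2 and Nkx2-5 at Slc8a1. It did so for no factor at Casq2. These intervals are too narrow for regions that lie in groups, and the windows were chosen with the lists known. Where an interval lies is therefore a description and no test. For the small margins, at least as many regions lay in 11.5% (Nkx2-5) and 5.22% (Gata4) of Ryr2 tiles and 11% (Nkx2-5) of Slc8a1 tiles. The shares of tiles below rank the loci within these lists and carry no test.

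**Figure D2:**
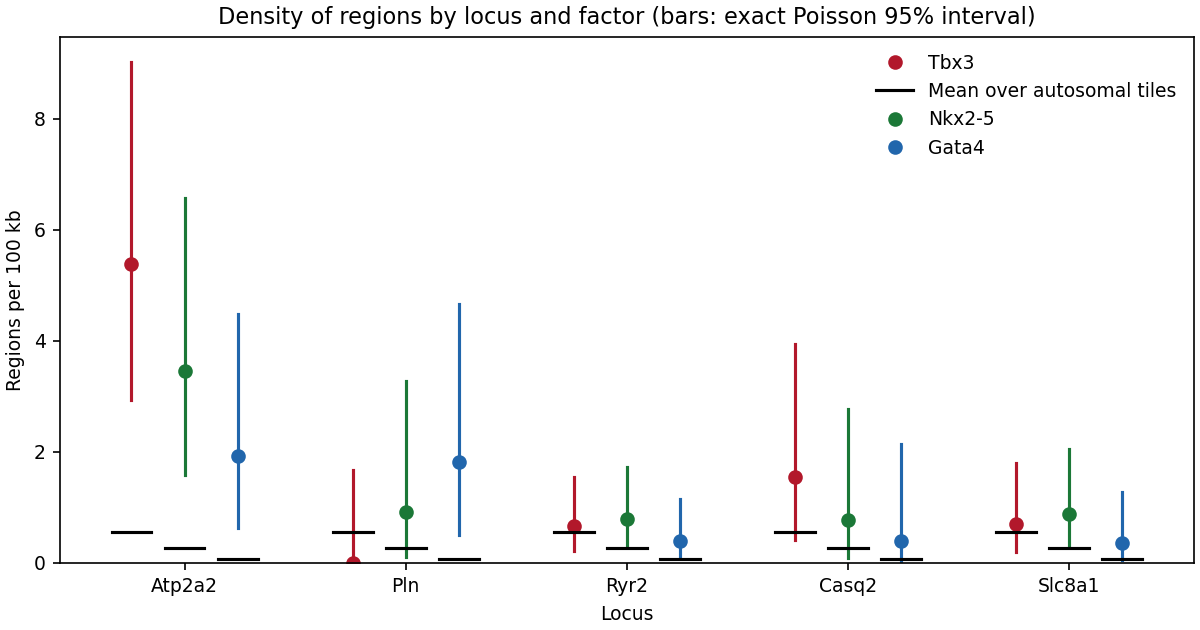
Regions per 100 kb (y axis) by locus (x axis) and factor, with exact Poisson 95% intervals as vertical lines and the mean over autosomal tiles of the same width as a black dash. Atp2a2 had the highest value of each factor, 5.38 for Tbx3, 3.46 for Nkx2-5 and 1.92 for Gata4, and Pln was at 0 for Tbx3. The Gata4 order of Atp2a2 and Pln turns with the wider 50% of each list (1.15 and 1.82) and in the middle of the windows (0 and 10). Edges of the middle are given to 10 kb, so the values in the middle are uncertain at both loci.

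The calcium pump locus, Atp2a2, held 14 Tbx3, 9 Nkx2-5 and 5 Gata4 regions. Tbx3 density was 5.38 per 100 kb (exact Poisson 95% interval 2.94 to 9.03), and 0.707% of 9191 tiles of this width held at least as many Tbx3 regions. Nkx2-5 density was 3.46 per 100 kb (1.58 to 6.57), matched or passed by 0.337% of tiles. Gata4 density was 1.92 per 100 kb (0.624 to 4.49), matched or passed by 0.087% of tiles. The pump locus therefore lay high in all 3 lists. Its regions were not confined to the middle of the window, and 16 of the 28 lay in 25.4 kb across its upper edge. The lower flank held 8 regions, the 60 kb in the middle 8 and the upper flank 12. In the RefSeq order Atp2a2 lies between Anapc7 and Ift81. Only the order was used, so whether the flanks take in these genes was not determined. A region in a flank cannot be assigned to the pump gene.

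The factors were arranged differently along the Atp2a2 window. Of the 14 Tbx3 regions, 6 were in the lower flank, 5 in the middle and 3 in the upper flank. Nkx2-5 was placed the other way, with 1, 3 and 5, and Gata4 had 1 region in the lower flank, 0 in the middle and 4 in the upper flank. The windows are given to 10 kb, and the regions from chr5:122951953 to chr5:122961126 lie within 10 kb of the middle's upper edge. They include 1 of the Gata4 regions. The Tbx3 regions starting at chr5:122897865 and chr5:122900864 and the Nkx2-5 region starting at chr5:122902419 lie within 10 kb of its lower edge. The counts in all 3 parts of the window are therefore uncertain. Of the 28 regions, 16 fell into a domain in which no gap exceeds 10 kb, at chr5:122951953-122977304 across the upper edge of the middle. It was 25.4 kb long and held 7 regions of Tbx3, 7 of Nkx2-5 and 2 of Gata4. Of the 4844 domains of 2 or more regions in the series, 0.186% held at least as many. With gaps of at most 5 kb, the largest Atp2a2 domain held 6 regions, against 7 at Ryr2 and 6 at Pln.

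Within that domain, single-factor and shared stretches alternated. It opened with 3 Tbx3 regions of 120, 175 and 128 bp at chr5:122951953-122952889, which no other list overlapped. Tbx3 and Nkx2-5 then coincided at chr5:122959709-122959913, with centres 4 bp apart, and at chr5:122960846-122961126, with centres 12 bp apart. Beside the second of these places a Gata4 region of 117 bp ended 21 bp before the Nkx2-5 region and 30 bp before the Tbx3 region, so Gata4 adjoined the overlapping Tbx3 and Nkx2-5 regions there without overlapping them. At chr5:122970918-122971369 a Gata4 region of 381 bp, wider than 98.3% of its list, overlapped a pair of Nkx2-5 regions of 133 and 150 bp. The domain closed at chr5:122976977-122977183 with Tbx3 and Nkx2-5 centres 12 bp apart, and a further Tbx3 region began 4 bp behind.

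Outside the domain, Atp2a2 had a pair of shared places. Tbx3 and Nkx2-5 met at chr5:122822380-122822647, with centres 76 bp apart. Tbx3 and Gata4 met at chr5:122852929-122853145, where they had 33 bp in common, and this was the only place in the 5 windows with those factors and no Nkx2-5. The widest regions of the window were the Tbx3 region of 285 bp at chr5:122897865-122898149, the Nkx2-5 region of 281 bp at chr5:122960846-122961126 and the 381 bp Gata4 region named above. The widest Tbx3 region was thus outside the domain and unshared, and the other 2 were inside it.

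The phospholamban locus, Pln, was the only window without a Tbx3 region. It held 4 Gata4 regions and 2 Nkx2-5 regions, and the nearest Tbx3 region to any of them was 261056 bp away. A count of 0 allows up to 1.68 Tbx3 regions per 100 kb (upper exact Poisson 95% limit), and 62.2% of 10864 tiles of this width held no Tbx3 region either. The Tbx3 densities of Ryr2, Slc8a1 and Casq2 lay below that limit and the density of Atp2a2 above it. Nkx2-5 density was 0.909 per 100 kb (0.11 to 3.28), and 14.1% of tiles held at least as many. Gata4 density was 1.82 per 100 kb (0.495 to 4.66), close to that of Atp2a2, and only 0.239% of tiles held at least as many.

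All 6 Pln regions lay in 1 domain of 11 kb at chr10:53044476-53055510, at the lower edge of the middle, which is the upstream side since RefSeq places Pln on the plus strand. Domains with 6 or more regions made up 7.35% of those in the series. The 100 kb on the downstream side held no region. The domain began and ended with a Gata4 region that contained an Nkx2-5 region whole. At chr10:53044476-53044923 a Gata4 region of 448 bp held an Nkx2-5 region of 149 bp. At chr10:53055170-53055510 a Gata4 region of 341 bp held one of 218 bp. Between them were 2 Gata4 regions of 149 and 206 bp without another factor. The 448 bp region was the widest in the 5 windows and ranked 14 of 1756 by width in the Gata4 list, and the 341 bp region ranked 45. In RefSeq, Pln lies within the span of Cep85l, so these positions cannot be assigned to 1 of these genes.

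The release channel locus, Ryr2, is the longest window, and its regions were gathered at 1 end. It held 5 Tbx3, 6 Nkx2-5 and 3 Gata4 regions. Tbx3 density was 0.658 per 100 kb (0.214 to 1.54), and 31.6% of 3139 tiles of this width held at least as many. Nkx2-5 density was 0.789 per 100 kb (0.29 to 1.72), reached by 11.5% of tiles. Gata4 density was 0.395 per 100 kb (0.0814 to 1.15), reached by 5.22%. Of the 14 regions, 10 lay in the 100 kb of the upper flank, against 4 in the 560 kb of the middle and 0 in the lower flank. RefSeq places Ryr2 on the minus strand, so the upper flank is the upstream side. Its density was 10 per 100 kb, against 0.714 in the middle.

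Gata4 and Nkx2-5 coincided at each Gata4 region of the Ryr2 window. The places were chr13:12221501-12221780, with centres 80.5 bp apart, chr13:12224456-12224705, with centres 13 bp apart, and chr13:12225742-12226107, with centres 64 bp apart. None held Tbx3, whose nearest region, at chr13:12217308-12217448, was 4052 bp before the first. These 7 regions formed a domain of 8.8 kb, and 4.93% of the domains of the series held at least as many. The Nkx2-5 regions of these places were 248, 235 and 366 bp wide, each wider than at least 89.9% of their list, and the Gata4 regions 151, 239 and 234 bp. The 366 bp region was the widest Nkx2-5 region of the 5 windows and ranked 90 of 6705.

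The other Ryr2 regions were apart from these. Tbx3 regions at chr13:12287655-12287797 and chr13:12289276-12289385 stood 639 and 708 bp on either side of an Nkx2-5 region of 131 bp, near the upper end of the window. In RefSeq order Mtr and then Actn2, the sarcomeric alpha-actinin gene, follow Ryr2 on that side, and these regions cannot be assigned to 1 of the genes. In the middle, 2 Tbx3 and 2 Nkx2-5 regions of 103 to 171 bp each stood alone, at least 32840 bp from any other list. The widest Tbx3 region of the window, 168 bp at chr13:12185195-12185362, was one of them.

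The calsequestrin locus, Casq2, held the only place of the 5 windows with all 3 factors. Its 4 Tbx3, 2 Nkx2-5 and 1 Gata4 regions corresponded to 1.54 per 100 kb (0.419 to 3.94), 0.769 (0.0932 to 2.78) and 0.385 (0.00974 to 2.14). At least as many were found in 14.4% of tiles for Tbx3, 16.7% for Nkx2-5 and 13.8% for Gata4. Casq2 thus did not stand out from the autosomes by number in any list.

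At the triple place, chr3:101903195-101903519 in the middle of the window, the 3 regions were nested. The Nkx2-5 region spanned 325 bp, wider than 97.3% of its list. The Tbx3 region of 179 bp lay inside it and the Gata4 region of 141 bp inside both. Centres were 7 bp apart for Tbx3 and Gata4, 22 bp for Tbx3 and Nkx2-5 and 29 bp for Nkx2-5 and Gata4. A second Tbx3 region, 184 bp wide and the widest Tbx3 region of the window, followed 502 bp behind at chr3:101904022-101904205. These 4 regions made up the densest domain of the window, and 21.5% of the domains of the series held at least as many. The remaining 3 regions were single. Tbx3 at chr3:101873340-101873447 was on the upstream side and Nkx2-5 at chr3:101973220-101973365 on the downstream side, towards Vangl1. The Tbx3 region at chr3:101889809-101889930 lay close to the lower edge of the middle, so its side of the gene's start is uncertain.

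**Figure D3:**
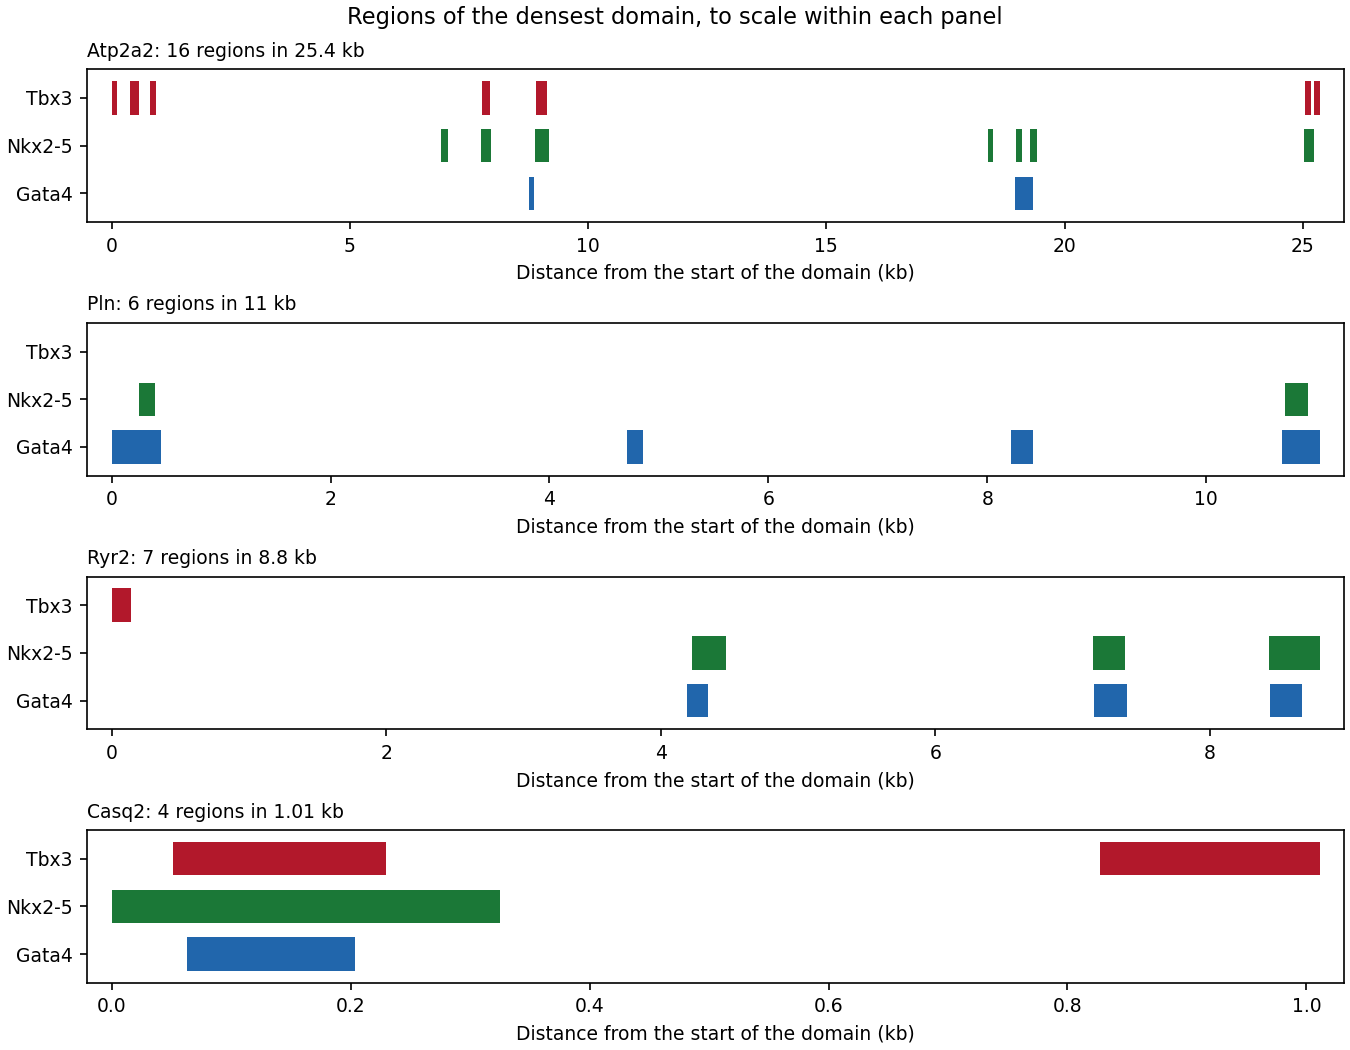
Regions of the densest domain at Atp2a2, Pln, Ryr2 and Casq2, drawn to scale within each panel, with kb from the domain's start on the x axis and 1 row per list. Tbx3 and Nkx2-5 bars coincide at Atp2a2, Gata4 and Nkx2-5 bars at Pln and Ryr2, and all 3 at Casq2.

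The exchanger locus, Slc8a1, held scattered regions, most of them inside the gene's part of the window. It had 4 Tbx3, 5 Nkx2-5 and 2 Gata4 regions, or 0.702 per 100 kb (0.191 to 1.8), 0.877 (0.285 to 2.05) and 0.351 (0.0425 to 1.27). Tiles of this width, 4186 in all, held at least as many in 29.9% of cases for Tbx3, 11% for Nkx2-5 and 9.34% for Gata4. The middle held 9 of the 11 regions, the upper flank 2 and the lower flank 0. The densest domain had only 3 regions, a size reached by 42.8% of domains in the series, so Slc8a1 had no group as large as those at Atp2a2, Pln and Ryr2.

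Slc8a1 had 2 shared places, with different partners of Nkx2-5. At chr17:81881215-81881651, in the middle of the window, a Tbx3 region of 437 bp enclosed an Nkx2-5 region of 114 bp, with centres 3.5 bp apart, the closest of any pair in the windows. This was the widest Tbx3 region of the 5 windows and ranked 105 of 13242 in its list. In the upper flank, the upstream side of this minus-strand gene, an Nkx2-5 region of 286 bp and a Gata4 region of 160 bp overlapped at chr17:82180856-82181153, with centres 75 bp apart. The other Gata4 region, 138 bp at chr17:82137752-82137889, was unshared and lay close to the upper edge of the middle, so that its side of the gene's end is uncertain.

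Joining regions that overlap by at least 1 bp turned the 66 regions into 50 places, of which 14 (28%) held at least 2 lists. Over the whole series 15.7% of 18483 places did so. Shared places numbered 6 of 21 at Atp2a2, 2 of 4 at Pln, 3 of 11 at Ryr2, 1 of 5 at Casq2 and 2 of 9 at Slc8a1. Nkx2-5 took part in 13 of the 14, the exception being the Tbx3 and Gata4 place at Atp2a2. In the series, 158 of 2904 shared places lacked Nkx2-5, so its presence in a shared place is usual there too.

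The partner of Nkx2-5 differed among the loci. Tbx3 and Nkx2-5 without Gata4 shared 5 places (10%, against 11.7% in the series), 4 of them at Atp2a2 and 1 at Slc8a1. Nkx2-5 and Gata4 without Tbx3 shared 7 places (14%, against 1.99% in the series), 3 at Ryr2, 2 at Pln, 1 at Atp2a2 and 1 at Slc8a1. The Tbx3 and Gata4 place is 1 of 50 (2%, against 0.855%), and so is the triple place (2%, against 1.18%). Thus Tbx3 was in the only shared place of Casq2, in 5 of 6 at Atp2a2 and in 1 of 2 at Slc8a1. It was in none of the 5 at Pln and Ryr2, and the Pln window held no Tbx3 region at all. In the series, 367 of 2904 shared places lacked Tbx3, so its presence at Casq2 and Atp2a2 is the usual case. The contrast between the loci was not tested, and the numbers per locus are small.

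**Figure D4:**
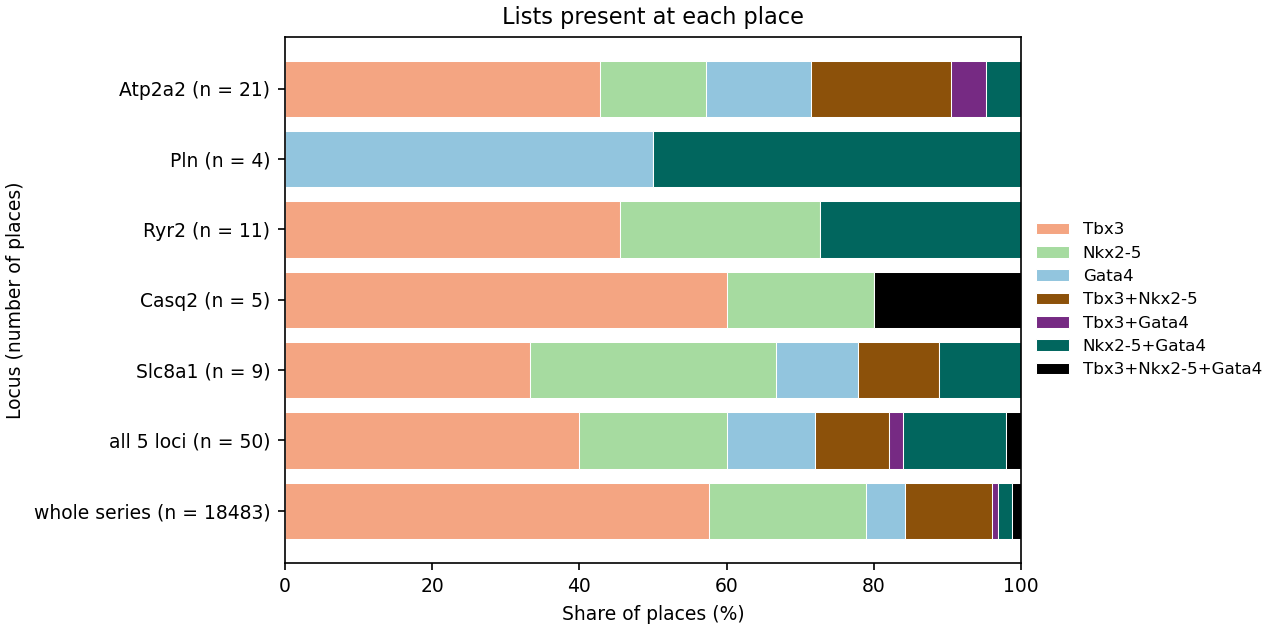
Share of places (x axis, percent) by the lists they hold, for each locus, all 5 loci and the whole series, with the number of places in parentheses. The Nkx2-5+Gata4 share is 50% at Pln and 27.3% at Ryr2, against 1.99% in the series.

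Counted by region, 30 of the 66 overlapped another list. Of the 24 Nkx2-5 regions, 9 overlapped Gata4 (37.5%, exact Clopper-Pearson 95% interval 18.8 to 59.4%), against 8.9% of the whole list. Of the same 24, 6 overlapped Tbx3 (25%, 9.77 to 46.7%), against 35.8% of the list. In the whole list Nkx2-5 thus met Tbx3 more often than Gata4, and in these windows the order was the other way round, although the members' intervals overlap. That order rests on Ryr2: without it, 6 of 18 Nkx2-5 regions overlapped Gata4 and 6 of 18 overlapped Tbx3 (33.3% each).

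Seen from the other lists, 8 of 15 Gata4 regions overlapped Nkx2-5 (53.3%, 26.6 to 78.7%; whole list 33.4%) and 2 overlapped Tbx3 (13.3%, 1.66 to 40.5%; whole list 21.3%). Of the 27 Tbx3 regions, 6 overlapped Nkx2-5 (22.2%, 8.62 to 42.3%; whole list 18.3%) and 2 overlapped Gata4 (7.41%, 0.91 to 24.3%; whole list 2.92%). The share of the whole list lay outside the members' interval only for Nkx2-5 regions with Gata4. The windows were selected on knowledge of these lists, so that comparison is a description. Regions that lie in groups make these intervals too narrow as well. Of the 9 Nkx2-5 regions with Gata4, 3 lay in the densest domain of Ryr2, 2 in that of Pln and 2 in that of Atp2a2.

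The 36 regions without an overlapping partner were of several kinds. A region of another list lay within 1 kb of 8 of them, as at the adjoining Gata4 region of Atp2a2, against 10.3% of the 15579 such regions of the series. Another 17 were over 10 kb from any other list, against 69.4% in the series. The isolated ones numbered 6 of 7 unshared regions at Slc8a1, 4 of 8 at Ryr2, 3 of 4 at Casq2, 4 of 15 at Atp2a2 and 0 of 2 at Pln. Windows with more regions leave less room for isolated ones, and the difference between loci was not tested.

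Region width, which the choice of windows did not use, went with sharing among the member regions. Shared Nkx2-5 regions (14) had a median width of 212.5 bp and unshared ones (10) 122 bp, beside 142 bp for the whole list. Shared Gata4 regions (9) had a median of 234 bp and unshared ones (6) 157 bp, beside 149 bp for the list. For Tbx3 the medians were 179 bp (7) and 134.5 bp (20), beside 147 bp. Widths overlapped between the groups in each list, ranging from 114 to 366 bp in shared and from 102 to 171 bp in unshared Nkx2-5 regions. A wide region also has more room to overlap, and its part in this difference was not tested. Shared and unshared regions were not compared over the whole lists, so the difference cannot be called particular to these loci.

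**Figure D5:**
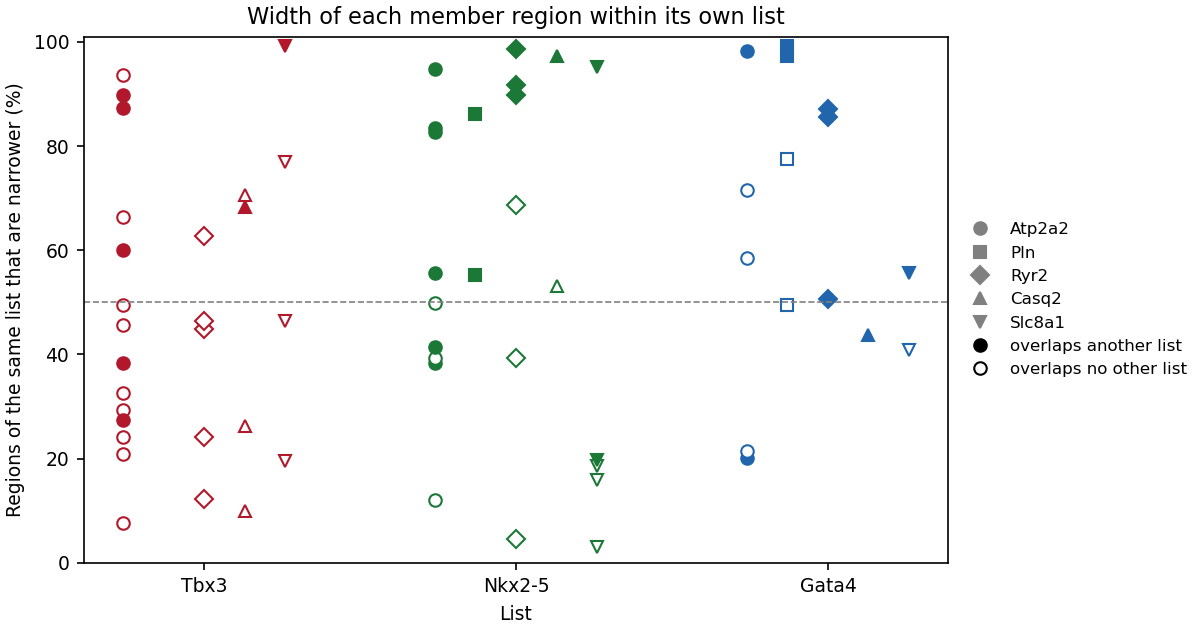
For each member region, the percent of its own list that is narrower (y axis) by list (x axis); marker shape is the locus, filled markers overlap another list and open markers do not. Of the Nkx2-5 regions, 11 of 14 filled and 2 of 10 open markers are wider than the list's median. The same split over the whole list was not made.

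The windows are given to 10 kb and their edges are not natural borders. The first region inside an edge lay from 10.6 kb (Tbx3, upper edge of Ryr2) to 148 kb (Nkx2-5, lower edge of Ryr2) from it. The first region outside lay from 3.29 kb (Nkx2-5, upper edge of Slc8a1) and 3.42 kb (Nkx2-5, upper edge of Ryr2) up to 750 kb (Tbx3, upper edge of Casq2) from it. The upper ends of the Slc8a1 and Ryr2 windows thus had regions just beyond them, and Casq2 was bordered by an empty stretch.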

How the data were processed

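The authors deposited 1 region list per factor, with chromosome, start and end and no score, per the file headers; positions are on mm9, as the submitters' processing notes state. Not given in the sources used here: aligner, peak caller, threshold, depth and the use of the control. Starts were read as counted from 0 and are printed counted from 1. The 5 genes, windows and lists were chosen with earlier results of these data known. Regions were counted per window (Python 3.11.15), with exact Poisson and Clopper-Pearson 95% intervals (scipy 1.17.1). Sharing means an overlap of at least 1 bp. The text names the widest region of each list per locus, places with all 3 lists or with Gata4 and another list, shared places in the densest domain, and that domain; other regions named were picked after their positions were seen. Counting was tested on simulated data in 20 draws against direct comparison. No motif search in the regions and no count at other calcium genes was made, since no mm9 genome or annotation was used. RefSeq (GRCm38.p6) gave gene order, strands and promoter sequences only.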

Additional observations from a re-analysis of the deposited data

How the results depend on the processing

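Of 180 alternative values, 150 stayed within the limits set (the counting interval of a density or share, 1.5 times a count). Outside them were 15 of 75 densities, 9 of 35 numbers of shared places, 5 of 60 shares and 1 of 10 sizes of the densest domain. The use of fewer regions can only lower a density or leave it as it is, so the direction of those changes was fixed. With the wider 50% of each list, Tbx3 fell to 1.92 per 100 kb at Atp2a2 and 0.132 at Ryr2, Nkx2-5 to 0.175 at Slc8a1 and Gata4 to 0 at Casq2. With as many of the widest regions in each list as the shortest holds (1756), Tbx3 was at 1.15 at Atp2a2, 0 at Ryr2 and Casq2 and 0.175 at Slc8a1, and Nkx2-5 at 1.15 at Atp2a2 and 0.175 at Slc8a1. Gata4 then led at Atp2a2, Pln and Slc8a1 and tied with Nkx2-5 at Ryr2 and Casq2, in a setting that leaves the Gata4 list whole. In the middle of the window only, Gata4 was at 0 at Atp2a2 and Ryr2 and at 10 at Pln, and Nkx2-5 at 5 at Pln. Edges of the middle are given to 10 kb, so these values are uncertain at Atp2a2 and Pln. Leaving out Atp2a2, an alternative added after the data were seen, gave 0.718 for Tbx3 over the other loci. Shared places at Atp2a2 fell to 1 (middle only), 3 (wider 50%) and 1 (equal sizes), those at Pln to 1 (middle only and equal sizes), those at Ryr2 to 0 (middle only) and those at Slc8a1 to 1 in all 3 settings. The share of Tbx3 regions overlapping Gata4, and of Gata4 regions overlapping Tbx3, was 0 with the wider 50% and with equal sizes, since these settings leave out the Gata4 or the Tbx3 region of the triple place at Casq2 and of the Tbx3 and Gata4 place at Atp2a2. The share of Nkx2-5 regions overlapping Gata4 was 66.7% with equal sizes. With gaps of 5 kb the densest Atp2a2 domain had 6 regions, fewer than the 7 of Ryr2 and as many as the 6 of Pln. Other definitions of sharing moved no value past these limits. The motif alternative was not run. No paired analysis was possible because each factor has 1 library, and the same holds for leaving out replicates. Region height and depth are unknown, so weak and strong regions count alike.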
